A study of Homo sapiens with 2 samples.

Results

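Clustered protocadherins are cadherin-type adhesion molecules encoded by 3 gene arrays, alpha, beta and gamma, that lie side by side on the long arm of chromosome 5. They were taken here as all protein-coding genes of GENCODE 44 on that chromosome whose symbol starts with PCDHA, PCDHB or PCDHG. Of the 53 such genes, 51 had a row among the 57773 genes of the count tables, namely 15 alpha, 15 beta and 21 gamma genes. PCDHB16 and PCDHGB5 had no row under their gene IDs and were not analysed here. The 51 genes span chr5:140786136-141512977 on GRCh38, all on the plus strand.

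The RNA came from REH and 697, both established human cell lines of BCP-ALL, the acute lymphoblastic leukemia of B-cell precursors. REH carries the ETV6/RUNX1 fusion, with its other ETV6 allele deleted, and 697 is fusion-negative. Both lines were grown without an experimental treatment in RPMI medium with fetal bovine serum, glutamine, penicillin and streptomycin, to which the study's methods add kanamycin, and 1 library was sequenced from each. No replicate exists, so the values below compare these libraries and not the lines in general, no p-value can be given, and the fusion cannot be told apart from any other difference between the lines.

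In the alpha and gamma arrays, each gene has a variable exon with its own promoter, which is spliced to constant exons at the end of the array that all genes of the array share. Beta genes mostly consist of a single coding exon and have no shared constant part. Neurons choose among these promoters largely at random, through CTCF and cohesin loops to distal enhancers and through promoter methylation, whereas the C-type genes at the end of the alpha and gamma arrays are used more uniformly. The proteins recognise identical copies on a neighbouring cell, which lets a neuron avoid its own branches.

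Because the constant exons belong to many genes at once, reads in them are ambiguous and enter no gene. The shared part of the annotated exons had a median of 46.6% in alpha genes and 43.8% in gamma genes, and a median of 0% in beta genes. The alpha and gamma counts therefore stem almost entirely from variable exons, and levels of different genes are compared below only per kilobase (kb) of exon that no other counted gene shares. The REH library held 45188375 reads in genes and the 697 library 41097497. Levels are given as CPM, the count of a gene divided by the scaled library total and expressed per 1000000 reads, and 3 reads, taken as the smallest number that counts as detected, equal 0.0597 CPM in REH and 0.0812 CPM in 697. All intervals are 95% intervals of counting error, exact Clopper-Pearson for ratios and shares and exact Poisson for levels.

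To see which arrays were transcribed, the reads of the members were first added up for each array. The alpha array was close to silent in both lines, the beta array was transcribed in REH alone, and the gamma array was transcribed in both lines at a higher level in REH. The alpha genes together had 7 reads in REH and 1 read in 697. The beta genes together had 2251 reads in REH (44.8 CPM) and 6 reads in 697 (0.162 CPM), a 276-fold difference with a counting interval of 126-fold to 752-fold. The gamma genes together had 6880 reads in REH (137 CPM) and 1861 in 697 (50.4 CPM), which is 2.72-fold with an interval of 2.58-fold to 2.86-fold. Over all 51 members, 9138 reads in REH stood against 1868 in 697, or 3.60-fold.

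**Figure D1:**
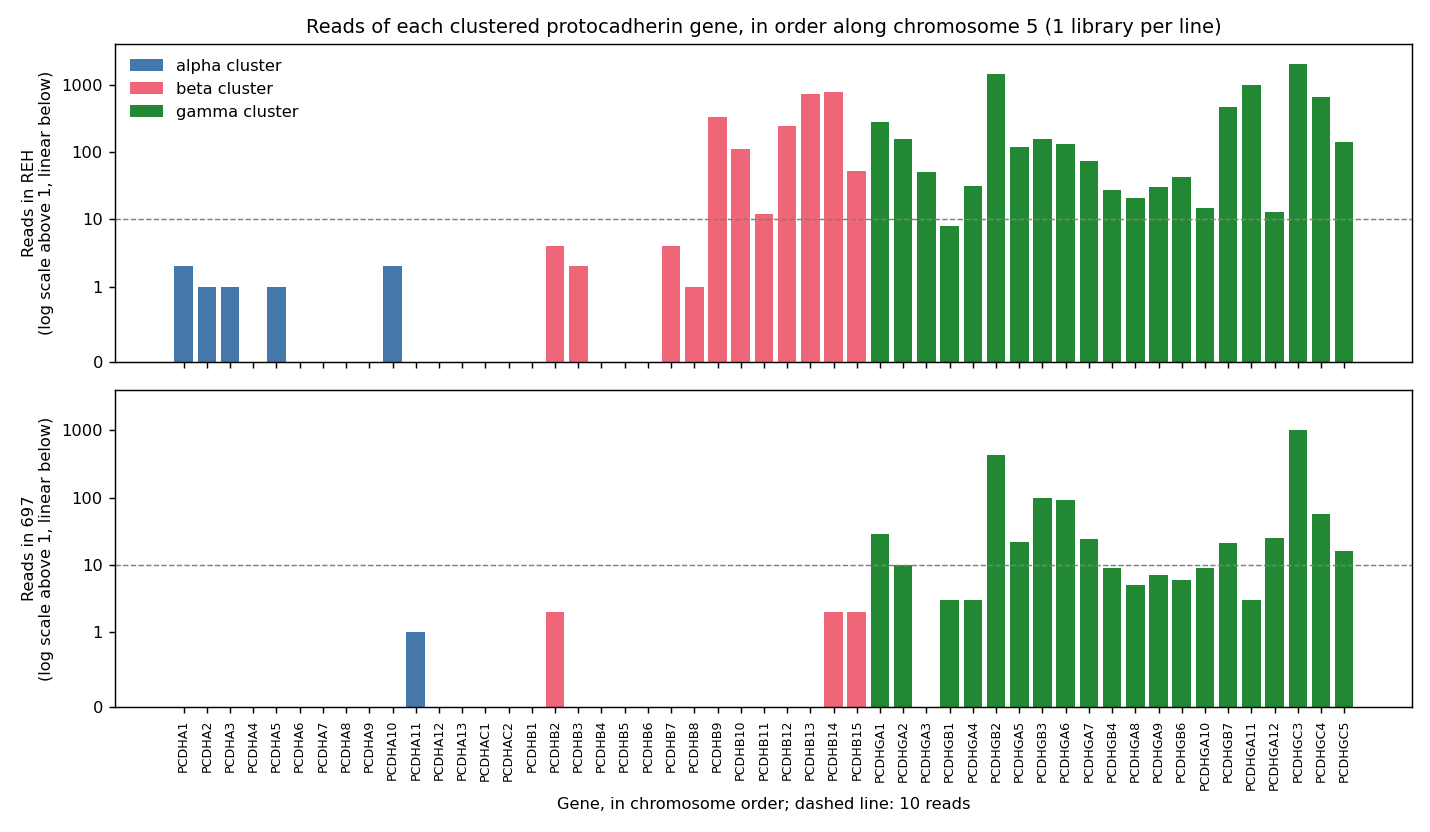
Reads of each of the 51 genes in the REH library (top) and the 697 library (bottom), with genes in their order along chromosome 5 and bars coloured by array. The read axis is logarithmic above 1 and linear below, and the dashed line marks 10 reads. In REH the bars above 10 reads begin at PCDHB9 and run through the gamma array, whereas in 697 they are found in the gamma array alone.

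A count of at least 10 reads was reached by 27 members in REH and by 12 members in 697. All 12 were gamma genes and had at least 10 reads in REH as well. The remaining 15 members passed this minimum through REH alone, so that their direction follows from the minimum and is only described. No read at all was found for 14 members in REH and for 27 in 697, and 13 of them had 0 reads in both. A log2 ratio (REH over 697) of at least 2 in size, a 4-fold difference, was used to call a gene higher in a line. By this rule 16 members were higher in REH, 0 were higher in 697, and 11 were neither. Of all 19145 genes in the table that passed this minimum, 12.5% were higher in REH and 8.15% in 697.

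The 12 members with at least 10 reads in both libraries can be set against all genes that passed the same minimum. That background is not matched for level, and all 12 members belong to the gamma array. Of the 12, 5 were higher in REH (PCDHGA1, PCDHGA2, PCDHGB7, PCDHGC4 and PCDHGC5) and 0 were higher in 697. Among all 15155 genes that reached 10 reads in REH as well as in 697, 4.24% were higher in REH and 4.44% in 697. The median log2 ratio of all genes compared was 0.05.

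**Figure D2:**
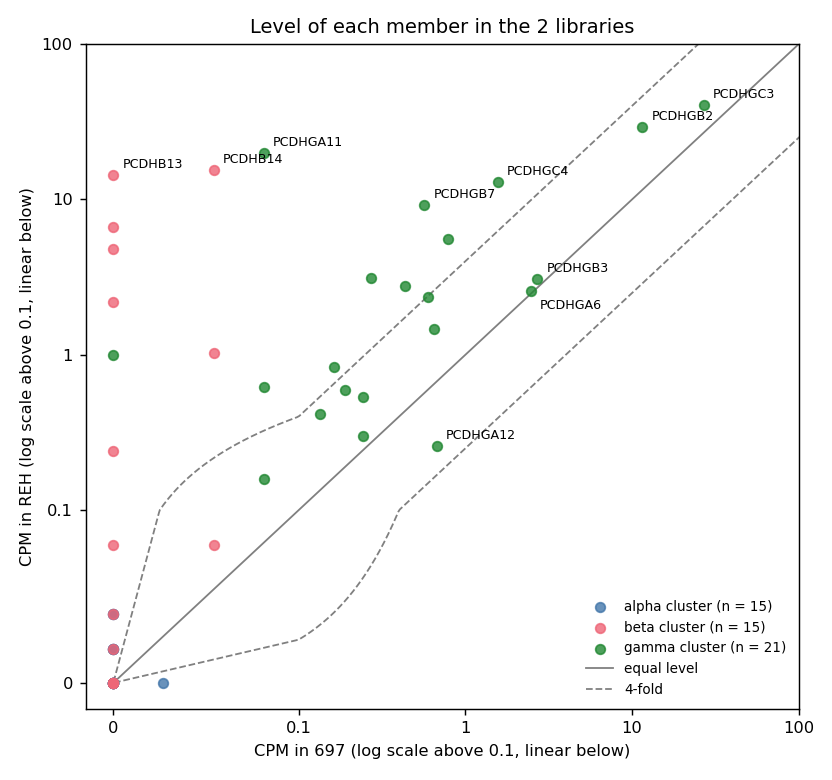
Level of each member in 697 (horizontal axis, CPM) and in REH (vertical axis, CPM), both logarithmic above 0.1 and linear below, with the line of equal level and dashed lines at a 4-fold difference. Beta genes lie along the left edge with 0 to 2 reads in 697, while PCDHGC3, PCDHGB2, PCDHGB3 and PCDHGA6 lie between the 4-fold lines.

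The alpha array gave single reads only. PCDHA1 and PCDHA10 had 2 reads each in REH, PCDHA2, PCDHA3 and PCDHA5 had 1 read each, and none of these had a read in 697. PCDHA11 had 0 reads in REH and 1 read in 697. The other 9 alpha genes were at 0 in both libraries, including the C-type genes PCDHAC1 and PCDHAC2. No alpha gene reached 3 reads, so a difference between the lines was not detectable at this depth. The ratio of the summed reads, with a log2 value of 2.36, had an interval from -0.60 to 7.86.

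Within the beta array, the reads fell on one side of a sharp border. PCDHB1 to PCDHB8, the upstream part of the array, had 0 to 4 reads each in REH, with 11 reads in sum against 2 in 697. PCDHB9 to PCDHB15, at chr5:141187127-141249365, had 2240 reads in sum in REH against 4 in 697. PCDHB8 ends 6.59 kb before PCDHB9 starts, and the former had 1 read in REH where the latter had 333. PCDHB16, which was not analysed here, lies between them. The beta genes below 10 reads were PCDHB2 with 4 reads in REH and 2 in 697, PCDHB7 with 4 and 0, PCDHB3 with 2 and 0, PCDHB8 with 1 and 0, and PCDHB1, PCDHB4, PCDHB5 and PCDHB6 with 0 in both.

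The most deeply covered beta genes in REH were PCDHB14 and PCDHB13. PCDHB14 had 775 reads in REH (15.4 CPM) and 2 reads in 697, a log2 ratio of 7.83 with an interval from 6.30 to 11.20. PCDHB13 had 717 reads in REH (14.3 CPM) and 0 in 697, which makes it at least 176-fold higher when 3 reads are set for 697. This setting ignores the counting error of the REH reads. The exact interval of the log2 ratio, which includes it, begins lower, at 7.15 for PCDHB13, 6.04 for PCDHB9, 5.57 for PCDHB12 and 4.43 for PCDHB10. PCDHB14 and PCDHB13 were both well covered in REH and below the detection limit of 3 reads in 697. PCDHB9, with 333 reads in REH and 0 in 697, was at least 81.6-fold higher. PCDHB12, with 241 and 0 reads, was at least 59.0-fold higher. PCDHB10, with 110 and 0 reads, was at least 27.0-fold higher.

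The last members of this block were weaker. PCDHB15 had 52 reads in REH and 2 in 697, with a log2 ratio of 3.95 (2.33 to 7.34). PCDHB11 had 12 reads in REH and 0 in 697, and its bound of 2.94-fold (with 3 reads set for 697) stays below the 4-fold line. It still counts among the members called higher in REH, since its log2 ratio with 0.5 reads added is 4.20. The exact interval of that ratio begins at 1.03. PCDHB11 lies between PCDHB10 and PCDHB12, so the transcribed block contained a gene of much lower level. The median log2 ratio of the 7 beta genes with at least 10 reads was 7.83, or 5.88 with the genes at 0 in 697 set to their bound. All 7 had passed the minimum through REH alone.

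Beta genes are close copies of each other, and reads that map to several places were not counted, so the count of a beta gene covers only its unique stretches. The beta pseudogenes between PCDHB14 and PCDHB15 passed the minimum through REH alone, so their direction follows from the minimum and is only described. PCDHB18P had 18 reads in REH and 2 in 697, and PCDHB19P had 25 reads in REH and 0 in 697. PCDHB17P, which lies further upstream between PCDHB6 and PCDHB7, was at 0 in both libraries. Reads of these pseudogenes and of the coding genes may be split between near-identical copies.

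The border in the beta array was next compared with the promoter sequences, taken from RefSeq on GRCh38.p14 as 250 bases before and 50 bases after each gene start. They were found for 45 of the 51 members (13 alpha, 13 beta and 19 gamma) in a table of 35116 promoters. Promoters of this family are known to share a short conserved element with the core CGCT. These 4 letters, on either strand, occurred in 44 of the 45 promoters and in 70.0% of all promoters. Among all 8-letter words, counted on both strands, the one held by most members was GTGGCGCT, which contains that core. It was found in 12 of 13 beta promoters, in 0 alpha and 0 gamma promoters, and in 1.15% of all promoters. PCDHB1 was the one of these 13 beta genes without it. PCDHB6 and PCDHB11 had no promoter among those found and were not examined.

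The beta word was found on both sides of the border. It occurred in 6 of 6 beta promoters with at least 10 reads in REH and in 6 of 7 with fewer, although in PCDHB8 it overlaps the gene start. The windows below show it in capitals in genes on either side of the border, plus strand, 5′ to 3′. The first 4 genes had 0 to 4 reads in REH and the other 6 had 52 to 775.
PCDHB2 (chr5:141094530-141094589): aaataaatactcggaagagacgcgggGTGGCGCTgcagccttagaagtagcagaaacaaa
PCDHB3 (chr5:141100379-141100438): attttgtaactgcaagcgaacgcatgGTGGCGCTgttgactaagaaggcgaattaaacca
PCDHB4 (chr5:141121709-141121768): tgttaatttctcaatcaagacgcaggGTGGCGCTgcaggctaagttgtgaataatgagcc
PCDHB7 (chr5:141172552-141172611): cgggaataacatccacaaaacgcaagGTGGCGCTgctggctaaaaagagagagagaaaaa
PCDHB9 (chr5:141187060-141187119): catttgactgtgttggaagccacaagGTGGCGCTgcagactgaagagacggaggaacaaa
PCDHB10 (chr5:141192285-141192344): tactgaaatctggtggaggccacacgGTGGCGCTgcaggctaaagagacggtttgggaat
PCDHB12 (chr5:141208629-141208688): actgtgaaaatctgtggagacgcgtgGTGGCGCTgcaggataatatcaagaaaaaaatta
PCDHB13 (chr5:141213851-141213910): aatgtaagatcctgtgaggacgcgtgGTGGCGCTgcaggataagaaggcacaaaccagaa
PCDHB14 (chr5:141223249-141223308): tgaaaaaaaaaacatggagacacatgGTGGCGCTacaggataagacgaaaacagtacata
PCDHB15 (chr5:141245300-141245359): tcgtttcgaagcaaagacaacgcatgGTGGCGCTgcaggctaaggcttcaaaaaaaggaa

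The alpha and gamma promoters held other words with the same core. ATGTCGCT was found in 9 of 13 alpha promoters and 0 other members, against 0.234% of all promoters. GCCGCTGT was found in 10 of 19 gamma promoters and 0 other members, against 1.64% of all promoters. Both words were chosen after the promoters had been searched, as the word held by most genes of each array. Windows of an array that was silent in both lines (alpha) and of one that was transcribed in both (gamma) are shown with the word in capitals.
PCDHA1 (chr5:140786072-140786131): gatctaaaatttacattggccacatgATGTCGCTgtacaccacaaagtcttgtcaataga
PCDHA5 (chr5:140821528-140821587): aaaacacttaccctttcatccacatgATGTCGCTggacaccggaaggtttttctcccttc
PCDHA8 (chr5:140841116-140841175): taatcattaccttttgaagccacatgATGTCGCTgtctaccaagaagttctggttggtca
PCDHGA1 (chr5:141330391-141330450): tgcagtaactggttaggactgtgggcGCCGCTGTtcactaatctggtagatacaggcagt
PCDHGA7 (chr5:141382637-141382696): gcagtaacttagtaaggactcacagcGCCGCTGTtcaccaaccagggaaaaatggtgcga
PCDHGC3 (chr5:141475868-141475927): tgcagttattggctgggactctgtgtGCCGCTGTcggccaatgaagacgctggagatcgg

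CTCF is named after the letters CCCTC. On either strand, these letters occurred in 3 of 13 alpha, 0 of 13 beta and 10 of 19 gamma promoters. The share over all promoters was 71.2%. These letters are not the full motif of CTCF, so a promoter without them may still hold a CTCF site. The member promoters had a median GC content of 39.7%, below the 58.7% of all promoters, and a median of 7 CpG dinucleotides against 14. The C-type promoters found were above both medians of all promoters. PCDHGC3 had 59% GC and 18 CpG, PCDHAC1 66% and 27, and PCDHAC2 63% and 15. The first promoter of PCDHGC4 had 60.67% and 23. A match describes letters in these 300 bases and is not a measurement of binding.

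Every gamma gene had reads in REH, and PCDHGA3 was the one gamma gene without a read in 697. The gamma array holds 3 kinds of gene, the A and B types, which differ in their variable exons, and the C type at its downstream end. A-type genes together had 1914 reads in REH and 228 in 697, a 6.17-fold difference (5.38 to 7.11). B-type genes together had 2155 and 565 reads, which is 2.80-fold (2.55 to 3.08). C-type genes together had 2811 and 1068 reads, which is 1.93-fold (1.80 to 2.08). Each of these sums leans on 1 gene. Without PCDHGA11 the other 11 A-type genes had 917 and 225 reads, which is 2.996-fold (2.59 to 3.48). Without PCDHGB2 the other 5 B-type genes had 696 and 139 reads, which is 3.68-fold (3.06 to 4.45). Without PCDHGC3 the other 2 C-type genes had 788 and 74 reads, which is 7.83-fold (6.16 to 10.1). The C type then has the highest ratio, and the intervals of the A and B types overlap, so no order of the types can be given. The genes left out were chosen after the values had been seen.

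The gamma reads were also distributed differently in the libraries. A-type genes took 27.8% of the gamma reads in REH (26.8% to 28.9%) and 12.3% in 697 (10.8% to 13.8%). This shift came from PCDHGA11, with 14.5% of the gamma reads in REH and 0.161% in 697, since the other A-type genes took 13.3% (12.5% to 14.2%) and 12.1% (10.6% to 13.7%). B-type genes took a like share in both, 31.3% in REH (30.2% to 32.4%) and 30.4% in 697 (28.3% to 32.5%). C-type genes took 40.9% in REH (39.7% to 42.0%) and 57.4% in 697 (55.1% to 59.6%). PCDHGC3, the gene with most C-type reads, made up 29.4% of the gamma reads in REH (28.3% to 30.5%) and 53.4% in 697 (51.1% to 55.7%). PCDHGC4 and PCDHGC5 together went the other way, with 11.5% in REH (10.7% to 12.2%) and 3.98% in 697 (3.13% to 4.97%).

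Among the A-type genes, PCDHGA11 stood apart. It had 997 reads in REH (19.8 CPM) and 3 reads in 697, with a log2 ratio of 7.71 (6.38 to 10.21). Its neighbour PCDHGB7 had 464 reads in REH and 21 in 697, a log2 ratio of 3.99 (3.39 to 4.73). The next coding gene downstream, PCDHGA12, was the one compared member with the higher level in 697, with 13 reads in REH and 25 in 697. Its log2 ratio was -1.36 (-2.48 to -0.37), which is below 0 but within the 4-fold lines. Opposite ratios were thus found within a stretch of 12.9 kb between the starts of PCDHGB7 and PCDHGA12. The pseudogene PCDHGB8P, inside this stretch, had 24 reads in REH and 5 in 697.

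The upstream A-type genes were higher in REH. PCDHGA1 had 279 reads in REH and 29 in 697, a log2 ratio of 2.80 (2.27 to 3.43). PCDHGA2 had 156 and 10 reads, with a log2 ratio of 3.45 (2.60 to 4.61). PCDHGA3 had 50 and 0 reads and was at least 12.3-fold higher with 3 reads set for 697, while the exact interval of its log2 ratio begins at 3.26. These are the members nearest to the beta array, whose transcribed block ends 81.1 kb before PCDHGA1. PCDHGA4, with 31 and 3 reads, had a log2 ratio of 2.73 whose interval (1.24 to 5.28) reaches below the 4-fold line.

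The A-type genes in the middle of the array differed less. PCDHGA6 had 130 reads in REH and 91 in 697, with a log2 ratio of 0.07 (-0.33 to 0.47), so that no difference was detectable at this depth. PCDHGA5 had 118 and 22 reads, a log2 ratio of 1.95 (1.31 to 2.71) just short of the 4-fold line. PCDHGA7 had 74 and 24 reads and a log2 ratio of 1.16 (0.50 to 1.91). The remaining A-type genes were covered by few reads in either library. PCDHGA9 had 30 and 7 reads, PCDHGA8 had 21 and 5, and PCDHGA10 had 15 and 9, with log2 ratios of 1.58, 1.52 and 0.26. The interval of PCDHGA10 (-0.99 to 1.67) included 0.

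Among the B-type genes, PCDHGB2 was the most covered in both lines. It had 1459 reads in REH (29.0 CPM) and 426 in 697 (11.5 CPM), a log2 ratio of 1.33 (1.18 to 1.49). PCDHGB3, the next B-type gene, had 155 reads in REH and 100 in 697, and its log2 ratio of 0.19 (-0.18 to 0.57) was not distinguishable from 0. PCDHGB3 and PCDHGA6 are adjacent, and they were the well covered members with the most equal levels. PCDHGB6 had 42 and 6 reads, a log2 ratio of 2.26 (1.12 to 3.89). PCDHGB4 had 27 and 9 reads and a log2 ratio of 1.09 (0.01 to 2.41). PCDHGB1 was the one gamma gene below 10 reads in both libraries, with 8 in REH and 3 in 697.

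The C-type genes of the gamma array include PCDHGC3, which is expressed in many tissues, and PCDHGC4, which is required for the survival of interneurons in mice. PCDHGC3 had 2023 reads in REH (40.2 CPM) and 994 in 697 (26.9 CPM), a log2 ratio of 0.58 (0.47 to 0.69). PCDHGC4 had 649 reads in REH (12.9 CPM) and 58 in 697 (1.57 CPM), with a log2 ratio of 3.03 (2.65 to 3.45). PCDHGC5 had 139 and 16 reads and a log2 ratio of 2.64 (1.92 to 3.52). The C-type genes were therefore unlike each other, with PCDHGC3 less than 2-fold apart and the other 2 past the 4-fold line. Over the 20 gamma genes that passed the minimum the median log2 ratio was 1.77, and 8 of these 20 had passed the minimum through REH alone.

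**Figure D3:**
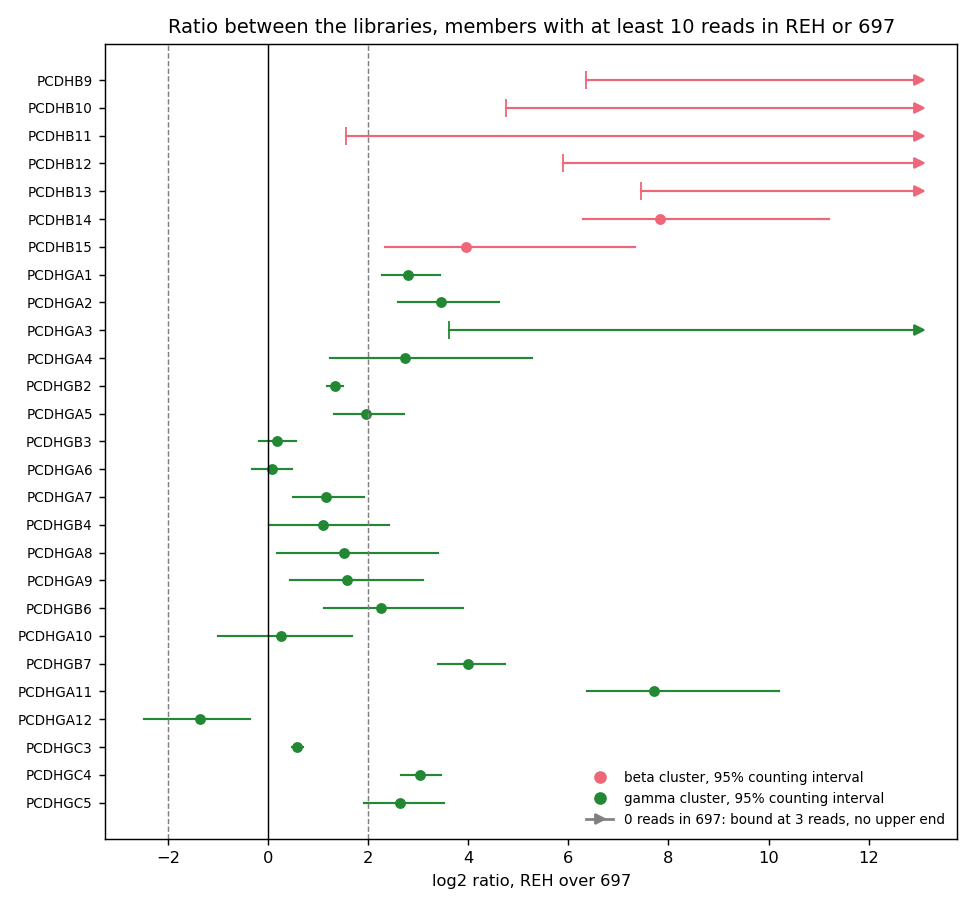
Log2 ratio of REH over 697 for the 27 members with at least 10 reads in a library, in chromosome order from top to bottom. Points show the ratio and lines the 95% counting interval, arrows start at the bound for genes with 0 reads in 697, and dashed lines mark a 4-fold difference. The ratios of the gamma genes range from -1.36 for PCDHGA12 to 7.71 for PCDHGA11.

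To rank the members within each line, CPM were divided by the kb of unshared exon. This length keeps stretches where reads map to several places, although such reads were not counted. Levels per kb of close copies such as the beta genes may therefore be too low. In REH, PCDHGC3 came first with 12.4 CPM per kb (11.8 to 12.9), followed by PCDHGB2 with 11.01 (10.5 to 11.6), PCDHGA11 with 5.46 (5.13 to 5.81) and PCDHGC4 with 4.62 (4.27 to 4.99). The intervals of these 4 genes do not overlap with their neighbours in the order. PCDHB14 with 3.49 CPM per kb, PCDHGB7 with 3.31 and PCDHB13 with 2.82 came next, and the intervals of neighbours among these 3 overlap. Those of PCDHB14 (3.25 to 3.75) and PCDHB13 (2.62 to 3.03) do not. PCDHB9 with 1.501, PCDHGA1 with 1.35, PCDHB12 with 1.24 and PCDHGB3 with 1.19 CPM per kb could not be ordered. Of the 26 pairs of neighbours in this order, 6 had intervals that did not overlap. The order ended with PCDHGA10 at 0.0669 and PCDHB11 at 0.0572 CPM per kb.

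In 697 the order was steeper. PCDHGC3 had 8.27 CPM per kb (7.76 to 8.80), PCDHGB2 4.37 (3.97 to 4.81), PCDHGB3 1.04 (0.85 to 1.27) and PCDHGC4 0.562 (0.427 to 0.727). The first 3 of these stood apart from the next gene in the order. PCDHGA6 followed with 0.428 CPM per kb and PCDHGA12 with 0.249, and none of the lower neighbours could be told apart. PCDHGC3 and PCDHGB2 thus led the order in both lines, whereas PCDHGA11, the third in REH, had only 3 reads in 697.

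The level of most members was low next to other genes. The median of the protein-coding genes with at least 10 reads was 6.00 CPM per kb in REH (12964 genes) and 6.75 in 697 (12218 genes). PCDHGC3 and PCDHGB2 exceeded it in REH, and PCDHGC3 alone did in 697. PCDHGC3 stood at percentile 71.0 of those genes in REH and at percentile 56.2 in 697. Since members with shared exons were set against exon lengths without the shared part, only reads in the variable exons enter these levels.

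**Figure D4:**
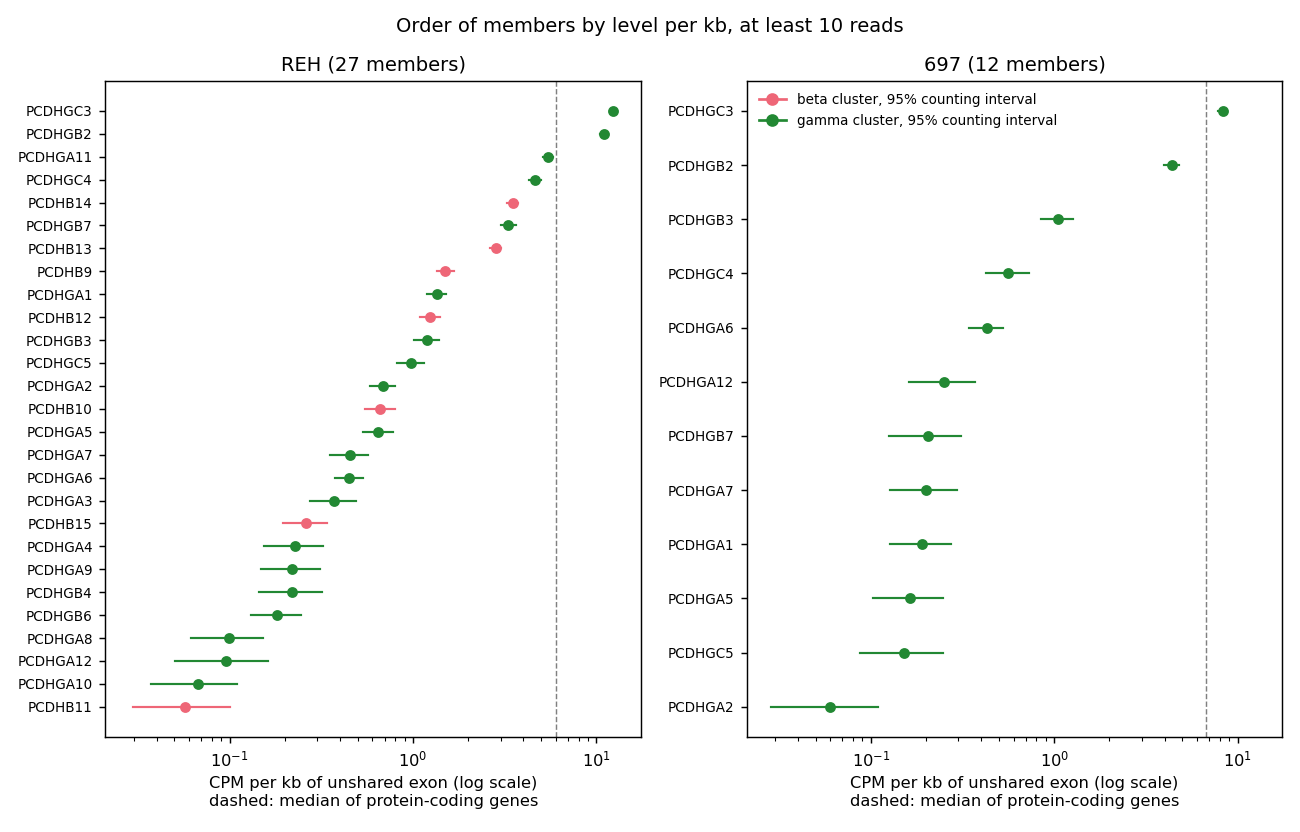
Members with at least 10 reads in REH (left, 27 genes) and in 697 (right, 12 genes), ordered by CPM per kb of unshared exon on a logarithmic axis, with 95% Poisson counting intervals. The dashed lines mark the median of protein-coding genes, 6.00 in REH and 6.75 in 697, which 2 members exceed in REH and 1 in 697.

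Next, the factors known to act on these arrays were examined in the same libraries. None of the 17 listed regulators passed the 4-fold line in either direction, and their median log2 ratio was -0.17. Among all genes that reached 10 reads in both libraries, as all 17 did, 4.24% were higher in REH and 4.44% in 697. The absence of calls is thus near the share over all genes. CTCF, which binds the promoters and enhancers of the arrays, had 233 CPM in REH and 225 in 697, a log2 ratio of 0.05. The cohesin subunit RAD21 had the lowest ratio of the list, with 349 CPM in REH and 1001 in 697 and a log2 ratio of -1.52 (-1.55 to -1.49). WAPL, which releases cohesin from DNA, had 114 and 221 CPM, a log2 ratio of -0.96. DNMT3B, a DNA methyltransferase that methylates these promoters in mice, had 22.4 CPM in REH and 43.96 in 697, a log2 ratio of -0.97. SMCHD1, a repressor of clustered protocadherins, had 173 and 243 CPM, a log2 ratio of -0.49. The highest ratio, 0.33, belonged to REST, a repressor of neuronal genes. Their part in the values of the members was not tested.

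RNA of genes whose proteins cleave protocadherins or bind to their cytoplasmic parts was found in both lines as well. Of 8 listed genes, 7 were covered by 10 or more reads and 0 passed the 4-fold line. This too is near the share over all genes covered in both libraries, 4.24% higher in REH and 4.44% in 697. ADAM10, the protease that sheds the extracellular part, had 163 CPM in REH and 277 in 697. The kinases PTK2 and PTK2B, which bind the constant domain, had ratios of opposite sign within the 4-fold lines. PTK2 had 106 CPM in REH and 251 in 697, whereas PTK2B had 412 and 234 CPM. AXIN1, a Wnt pathway scaffold that PCDHGC3 binds, had 99.4 and 71.7 CPM.

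Protocadherins outside the arrays had ratios in both directions. Of 10 listed genes 9 had a row. Of the 6 with at least 10 reads in a library, 3 were higher in REH and 1 in 697. Among all genes that passed this minimum, 12.5% were higher in REH and 8.15% in 697. The 3 higher in REH passed it through REH alone, so their direction follows from the minimum and is only described. PCDH8 had 498 reads in REH and 0 in 697, which is at least 122-fold with 3 reads set for 697. The exact interval of its log2 ratio begins at 6.63. PCDH10 had 138 reads in REH and 1 in 697, a log2 ratio of 6.08 (4.16 to 11.98). PCDH1, with 86 and 0 reads, was at least 21.1-fold higher in REH by the same setting, with an exact log2 interval that begins at 4.07. The opposite held for PCDH9, with 703 reads in REH and 5025 in 697 and a log2 ratio of -3.28 (-3.40 to -3.17). PCDH18, with 777 and 554 reads, and PCDH12, with 409 and 173, stayed within the 4-fold lines. PCDH7, PCDH17 and PCDH19 had 0 to 2 reads in either library, and PCDH20 was not analysed here.

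Genes lying among or beside the arrays were then compared with the members. TAF7, a subunit of the general transcription factor TFIID that lies between the beta and gamma arrays, had 10576 reads in REH and 3328 in 697, a log2 ratio of 1.22 (1.17 to 1.28). The lncRNA gene ENSG00000272070, at chr5:141326210-141329363 just upstream of PCDHGA1, had 567 reads in REH and 85 in 697, a log2 ratio of 2.29 (1.96 to 2.64). SLC25A2, also inside the span, had 3 and 2 reads. TAF7 and ENSG00000272070 were thus shifted in the same direction, towards REH, by different amounts, since their intervals do not overlap. The interval of the SLC25A2 log2 ratio (-2.99 to 3.72) is too wide to tell whether that gene was shifted.

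Of the 26 protein-coding genes within 500 kb on either side, 25 had at least 10 reads in a library, with a median log2 ratio of 0.42. Of these, 6 were higher in REH (APBB3, SLC35A4, RELL2, FCHSD1, ARAP3 and PCDH1) and 1 in 697 (EIF4EBP3). Among all genes that passed this minimum, 12.5% were higher in REH and 8.15% in 697. Except for RELL2, those called higher in REH passed the minimum through REH alone, so their direction follows from the minimum. DIAPH1, the nearest coding gene downstream, had 40307 reads in REH and 23842 in 697, a log2 ratio of 0.31. ZMAT2, the nearest coding gene upstream, had a log2 ratio of 0.42. Genes further away included large differences. SLC35A4 had 5283 reads in REH and 2 in 697, and FCHSD1 had 958 and 1. The part of these differences in the values of the members was not tested.

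**Figure D5:**
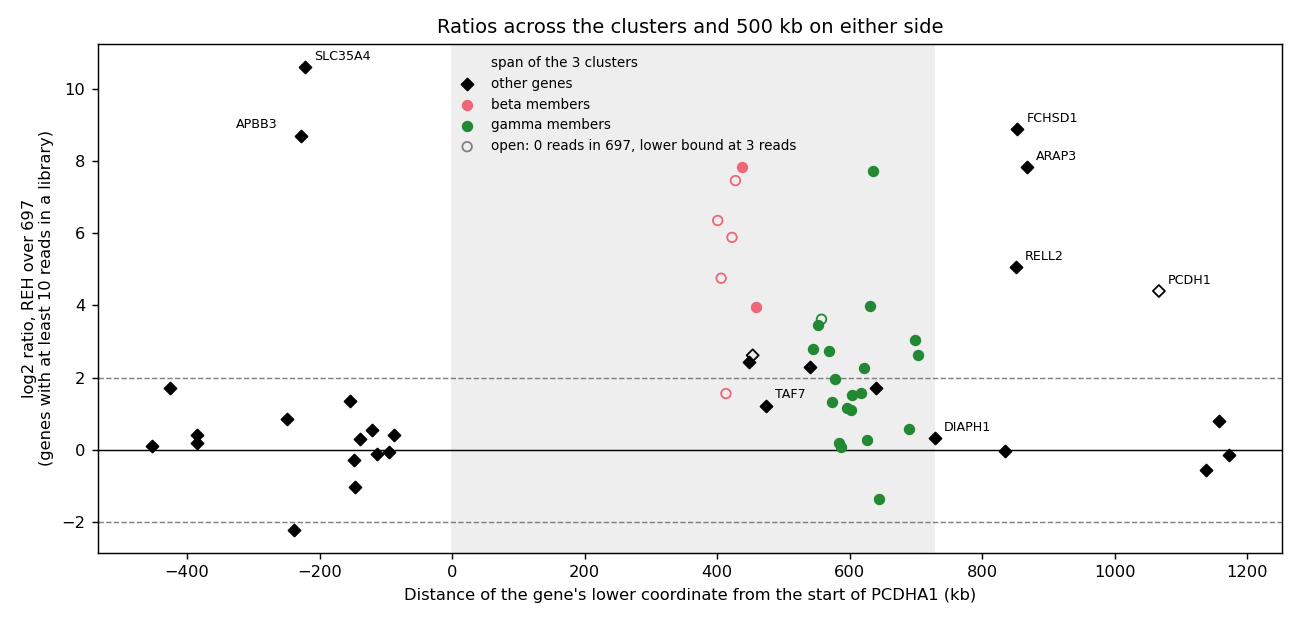
Log2 ratio of REH over 697 along the region, plotted against the distance in kb from the start of PCDHA1, for genes that passed the minimum of 10 reads. Coloured circles are members, black diamonds other genes, open symbols lower bounds for genes with 0 reads in 697, and the grey field is the span of the arrays, where no alpha gene reached 10 reads. DIAPH1 directly downstream has a ratio of 0.31, and 5 of the 7 beta genes shown, all of which passed the minimum through REH alone, lie above 4.

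The libraries were also checked against marker genes. All 10 listed B-cell precursor markers had at least 10 reads in a library, with summed levels of 4327 CPM in REH and 7790 in 697. Their ratios went in both directions, with 1 gene past the 4-fold line on either side. Among all genes that passed the minimum, 12.5% were higher in REH and 8.15% in 697. CD79B was higher in REH, with 481 CPM against 120, and VPREB1 was higher in 697, with 3 reads in REH and 10039 in 697. PAX5 had 792 and 1224 CPM, CD79A 655 and 287 CPM, and MME 223 and 107 CPM. Since the clustered protocadherins are best known from neurons, 7 neuronal markers were included. Their summed level was 10.4 CPM in REH and 87.2 in 697, nearly all of it from SYT1, with 461 reads in REH and 3174 in 697. RBFOX3 had 57 and 38 reads, MAP2 had 3 and 10, and ELAVL3 had 4 and 0, while SNAP25, STMN2 and GAP43 were at 0 in both libraries. Of the stromal markers, 5 with a row summed to 33.3 CPM in REH and 64.9 in 697. Nearly all of this came from PDGFRB, with 1197 reads in REH and 2005 in 697, and COL1A1, with 477 and 387. CDH5 had 1 and 4 reads, and COL1A2 and COL3A1 were at 0 in both. The 3 T-cell markers summed to 0.935 and 0.0271 CPM, nearly all of it from CD3E, with 45 reads in REH and 0 in 697, while CD3D was at 0 in both. The 3 myeloid markers summed to 252 and 0.595 CPM. Nearly all of this came from MPO, with 12643 reads in REH and 12 in 697, while CD14 had 29 and 8 reads and LYZ had 1 and 2. The part of these markers in the values of the members was not tested. In RNA from a whole culture, fewer cells of a type and less RNA per cell cannot be told apart.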

How the data were processed

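For REH and 697, 1 RNA library each was sequenced, and samples were grouped by the cell line in their labels. The authors deposited raw read counts per gene, made with STAR 2.4.2a, in columns for either strand, the strand of the gene and the opposite strand. The study's methods name hg38 and poly(A) purification, whereas the submitters' processing notes name hg19 and the labels name ribodepleted, stranded libraries. The annotation release is not given in the sources used here. Reads in more than one gene (4.58% in REH, 4.41% in 697) or in several places (10.8% and 15.4%) were not counted in genes. The share in genes was 70.7% and 69.7%, and the rows of unassigned reads stayed out of totals and comparisons. Reads on the strand of the gene made up 50.1% and 50.2% of stranded assignments, so the libraries behave as unstranded and the column for either strand was used. Antisense reads cannot be told apart.

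Symbols, types and positions came from GENCODE 44 on GRCh38 by gene ID (51996 matched, 5777 not), and positions are not those of the authors. Unshared exon length counts the exon bases of a gene that no other gene of the files covers. Totals were scaled by TMM in edgeR 4.0.16 under R 4.3.3 (factors 1.11 for REH and 0.899 for 697). Genes that reached 10 reads in either library were compared by log2(REH/697), with 0.5 added to each read count before scaling. A gene with 0 reads in 697 was set to 3 reads for its lower bound. Without replicates no test was made. Duplicate reads are not independent molecules, so intervals cover counting error only. The computation was tested on simulated data.

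All members with at least 10 reads in a library were named. Values of some listed genes are not reported here. The members, lists and words were chosen with earlier results of these data known. Alternatives were unscaled totals, size factors of DESeq2 1.42.0, TMM from coding genes, other minimum reads, 5 added reads, a log2 threshold of 1, each strand column, all annotated exons and, chosen after seeing the data, sums without the leading gene of each gamma type. Other steps ran in Python 3.11.15 (scipy 1.17.1, numpy 2.4.6, matplotlib 3.10.9, pandas 2.3.3).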

Additional observations from a re-analysis of the deposited data

How the results depend on the processing

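There are no replicates, so none could be left out. No paired analysis was possible because REH and 697 were each sequenced once. The 16 members higher in REH became 13 to 22 under the alternatives, and the directions of the summed ratios were kept under every alternative that gave a value. With unscaled totals the median log2 ratio of all genes rose by 0.31, and the summed log2 ratio of the gamma genes went from 1.44 to 1.75 with it. Reads on the opposite strand gave a summed log2 ratio of 9.74 for the beta genes, against 8.11. With a minimum of 1 read 1 member was higher in 697 (PCDHA11, with 1 read), and with a log2 threshold of 1 it was 1 as well (PCDHGA12). By all annotated exons, 6 of the 27 members kept their place in the REH order, and the largest move was 3 places. No alpha gene reached 10 reads, so no alpha median exists, and reads on the strand of the gene gave no alpha ratio since 697 had 0 of them. With 5 reads added, PCDHB11, PCDHGA4 and PCDHGB6 fell below the 4-fold line. PCDHGA5 passed it with unscaled totals (2.26) and on the strand of the gene (2.001). On the opposite strand PCDHGA9 passed it (2.64) and PCDHGB6 did not (1.69). PCDHGA6 turned to a log2 ratio of -0.15 on the strand of the gene. Of the 27 ratios, 5 left their interval with 5 reads added (PCDHB13 went from 10.04 to 6.73), 2 with unscaled totals, and 0 with DESeq2 size factors or TMM from coding genes. The beta median of 7.83 became 5.18 with 5 reads added and 4.20 with a minimum of 1 read. Depth limits the alpha genes and all members under 10 reads.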
